A study of Mus musculus with 16 samples.

Results

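Interferon-stimulated genes are genes whose transcription rises when a cell senses interferon, and 35 of them, chosen by name, are described here in mouse epicardial cells. Their rows were taken by gene symbol from the deposited table of expected counts, which lists 46348 genes. All 35 were present, and all 35 were among the 15494 genes that passed the filter on low counts and were tested. The RNA came from MEC1, an established cell line from the epicardium, the mesothelial layer over the heart muscle, in 16 libraries that form 8 groups of 2. The groups are control siRNA, PRMT1 siRNA, p53 siRNA and both of these siRNAs, each without TGF-beta and each with TGF-beta. An siRNA is a short double-stranded RNA that leads to the breakdown of a matching transcript; Prmt1 encodes a protein arginine methyltransferase and Trp53 encodes p53, a transcription factor of the response to damage. The study's title links PRMT1, Mdm4 and p53 to invasion and change of fate in the epicardium, and TGF-beta is a growth factor that drives epicardial cells in culture from an epithelial to a mesenchymal state. Every group, controls included, received an siRNA, and untransfected or interferon-treated cells were not analysed here. Dose and time of TGF-beta and the amounts of siRNA are not given in the sources used here. All libraries come from 1 cell line, and the series text calls the pair in each group biological replicates without naming separate cultures, so p-values measure the spread between these libraries.

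Type I interferons are secreted proteins that bind a receptor made of Ifnar1 and Ifnar2. The receptor's kinases Jak1 and Tyk2 phosphorylate transcription factors such as Stat2, which joins Irf9 at a response element in the promoters of interferon-stimulated genes. The products detect viral RNA, degrade it, block its translation or trap viral particles, and several of them, among them Stat2, Irf9 and Irf7, belong to the pathway itself. Many cell types keep a low constant level of these transcripts without any infection.

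The promoters are shown first because the response element is the sequence the group is known for. Of the 35 genes, 26 matched the RefSeq promoter table (GRCm38.p6, the mm10 build). The core letters searched for were GAAA, then any 2 bases, then GAAA again, on both strands with overlapping matches allowed. They were present within the 250 bases before the start site of 9 of these 26 genes (34.6%), namely Stat2, Oas1a, Ifit1, Ifit3, Rsad2, Isg15, Gbp2, Gbp3 and Bst2. The same letters were in such windows of 936 of all 27025 genes in the table (3.46%). A match is a description of the letters and no evidence of binding, and its lack says only that these letters are not in this window. The table gave no window for Dhx58, Zbp1, Oas2, Mx1, Mx2, Usp18, Parp9, Parp14 and Rtp4. Printed below are the 180 bases before the start of 6 of the 9 genes with a match, 5′ to 3′ on the strand of the gene. Genes without a match are not shown. Capitals mark the matches, which read TTTC, any 2 bases, TTTC where the match is on the other strand.
Isg15 (chr4:156200819-156200998, minus strand): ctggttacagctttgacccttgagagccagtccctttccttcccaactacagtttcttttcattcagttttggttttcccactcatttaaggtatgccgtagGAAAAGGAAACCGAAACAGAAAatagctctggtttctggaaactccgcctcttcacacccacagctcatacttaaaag
Ifit1 (chr19:34640709-34640888, plus strand): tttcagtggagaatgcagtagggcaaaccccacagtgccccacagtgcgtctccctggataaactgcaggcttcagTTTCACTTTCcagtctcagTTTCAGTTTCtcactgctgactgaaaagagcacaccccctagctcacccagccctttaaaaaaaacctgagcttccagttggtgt
Ifit3 (chr19:34583349-34583528, plus strand): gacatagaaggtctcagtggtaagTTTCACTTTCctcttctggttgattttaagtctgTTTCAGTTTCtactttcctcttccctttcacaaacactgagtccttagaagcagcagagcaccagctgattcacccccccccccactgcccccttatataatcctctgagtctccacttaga
Rsad2 (chr12:26456453-26456632, minus strand): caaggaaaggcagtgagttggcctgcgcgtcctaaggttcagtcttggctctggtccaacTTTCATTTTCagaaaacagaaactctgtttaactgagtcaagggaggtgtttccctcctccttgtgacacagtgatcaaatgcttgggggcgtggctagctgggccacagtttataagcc
Oas1a (chr5:120907526-120907705, minus strand): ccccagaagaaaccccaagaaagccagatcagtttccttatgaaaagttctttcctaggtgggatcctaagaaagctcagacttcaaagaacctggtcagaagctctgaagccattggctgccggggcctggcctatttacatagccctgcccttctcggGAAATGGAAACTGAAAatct
Gbp2 (chr3:142620483-142620662, plus strand): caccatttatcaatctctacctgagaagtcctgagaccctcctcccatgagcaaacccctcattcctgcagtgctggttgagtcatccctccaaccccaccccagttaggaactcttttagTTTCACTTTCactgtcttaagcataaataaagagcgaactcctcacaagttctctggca
In these windows Isg15 held 3 overlapping matches, which merge into 1 run of capitals. Oas1a held 2 that overlap and end just before the start, Ifit1 and Ifit3 held 2 apart from each other, and Rsad2 and Gbp2 held 1.

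Several of the genes lie side by side. Ifit2, Ifit3 and Ifit1 sit within 99317 bases of chromosome 19, and Rsad2 and Cmpk2 within 37084 bases of chromosome 12. Parp9 and Dtx3l overlap by 683 bases on opposite strands, and the strand used in counting is not stated, so reads from the shared bases cannot be told apart. Irf9 overlaps Rnf31 by 124 bases on the same strand, Irf7 overlaps Phrf1 by 46 bases, and Herc6 shares 45032 bases with a model on its own strand that had at most 7.41 CPM. Oas1a and Ifit3 have near copies, Oas1g and Ifit3b, with which the counting may have exchanged reads.

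Library totals ran from 19617874 to 30759317 counts. Levels are in CPM, counts scaled to library size after TMM scaling (a correction for differences in RNA composition), and changes are log2 changes ± SE from edgeR over all 16 libraries, where a gene was called at an adjusted p under 0.05 over all genes tested. Prmt1 stood at 48.1% of its control level with PRMT1 siRNA and 46.3% with both siRNAs, and at 43.5% and 37.5% in TGF-beta. Trp53 stood at 40.2% with p53 siRNA and 65.5% with both, and at 44.9% and 60.8% in TGF-beta. All of these were called, although without TGF-beta the fall of Prmt1 with both siRNAs lost its call when replicate 2 of that group was left out (adjusted p = 0.0613), and that of Trp53 when replicate 1 of control siRNA (0.0595) or replicate 1 of both siRNAs (0.0746) was. Replicate 2 of p53 siRNA plus TGF-beta stood apart from its partner, with a root mean square log2 difference of 0.805 against 0.341 to 0.426 in the other groups. The 10 epicardial and mesothelial markers listed summed to 1385 to 1404 CPM in control cells and 269 to 278 CPM after TGF-beta. Wt1, the defining factor of the layer, had 247 and 257 CPM in control cells, while Aldh1a2, Krt8 and Krt19 were near absent, with at most 1.14, 1.59 and 1.59 CPM in any library. Of 12 haematopoietic markers, 9 stayed below 1 CPM in every library, Ptprc, the defining marker, among them; the list summed to 40.0 to 41.9 CPM in control cells and 9.48 to 10.4 CPM after TGF-beta, almost all of it Cd14, and its part in the results was not tested. Of the endothelial markers, 5 of 7 stayed below 1 CPM, and the list summed to at most 9.57 CPM in any library. Cardiomyocyte markers were below 1 CPM in every library for 6 of 7; the exception, Tnnt2, had 19.8 and 18.1 CPM in control cells and 88.6 and 105 CPM after TGF-beta.

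Together the 35 genes summed to 11972 and 12533 CPM in the 2 control libraries. With PRMT1 siRNA the sum was 6781 and 7526 CPM, 58.4% of control, and with both siRNAs it was 10251 and 9345 CPM, 80.0% of control. With p53 siRNA it was 14046 and 14297 CPM, 116% of control. These 4 groups did not overlap in their summed level, in the order p53 siRNA, control, both siRNAs, PRMT1 siRNA. In TGF-beta every group was lower, and the sums were 5948 and 7035 CPM with control siRNA, 5009 and 5578 CPM with PRMT1 siRNA, 4776 and 5917 CPM with p53 siRNA and 5501 and 5482 CPM with both. Here both libraries with control siRNA were above all 6 others, though by little for p53 siRNA, and the pairs with PRMT1, p53 and both siRNAs overlapped. Fewer cells that express these genes and less RNA of them per cell cannot be told apart in bulk RNA.

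**Figure D1:**
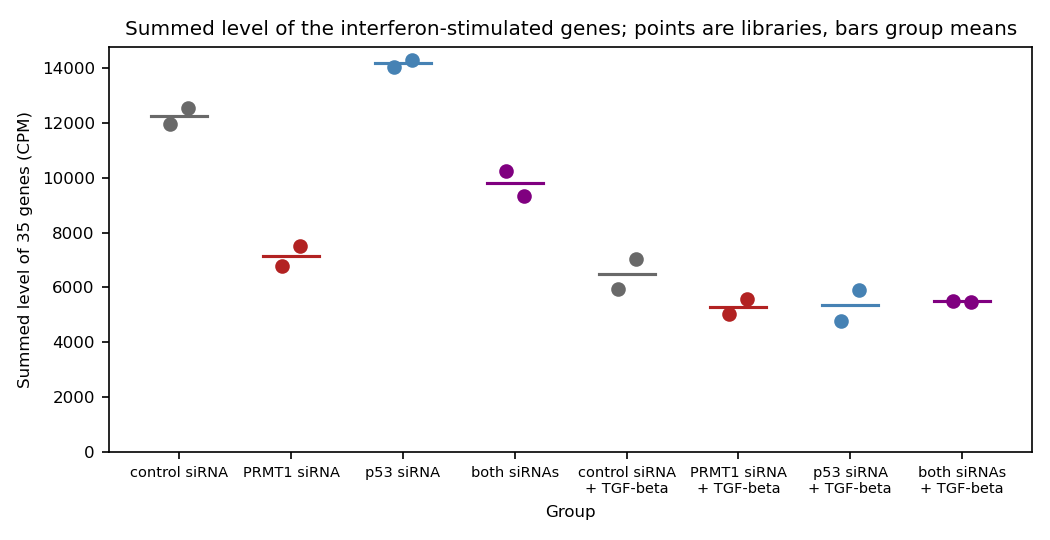
Summed level of the 35 interferon-stimulated genes in CPM (vertical axis, from 0) in the 8 groups (horizontal axis); points are libraries and bars are group means. The sums with TGF-beta lie at the low end, and the 4 groups without it separate, with p53 siRNA highest and PRMT1 siRNA lowest.

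Gene by gene the order was much the same at the top. The highest group mean was in p53 siRNA without TGF-beta for 33 of the 35 genes; the exceptions were Irf9, highest with control siRNA, and Ifitm3, highest with both siRNAs. The lowest mean was in PRMT1 siRNA with TGF-beta for 16 genes, in p53 siRNA with TGF-beta for 9 and in both siRNAs with TGF-beta for 6. The share of all genes with their highest or lowest mean in these groups was not counted. Without TGF-beta, p53 siRNA was called above control siRNA for 1 of the 35 genes (median change 0.17), and the libraries overlapped in 8. The span from the lowest to the highest group mean was widest for Mx1 (18.8-fold) and Oas2 (14.0-fold) and narrowest for Irf9 (1.42-fold). Per kilobase of the longest annotated transcript, the control level was highest for Ifitm3 (1081 CPM per kb), Bst2 (922), Isg15 (782), Ifit3 (503) and Lgals3bp (337), and lowest for Mx1 (23.4) and Oasl1 (8.21). The most abundant of these per length are thus short transcripts of a membrane protein that hinders viral entry (Ifitm3), a tether of budding particles (Bst2) and a ubiquitin-like modifier (Isg15).

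**Figure D2:**
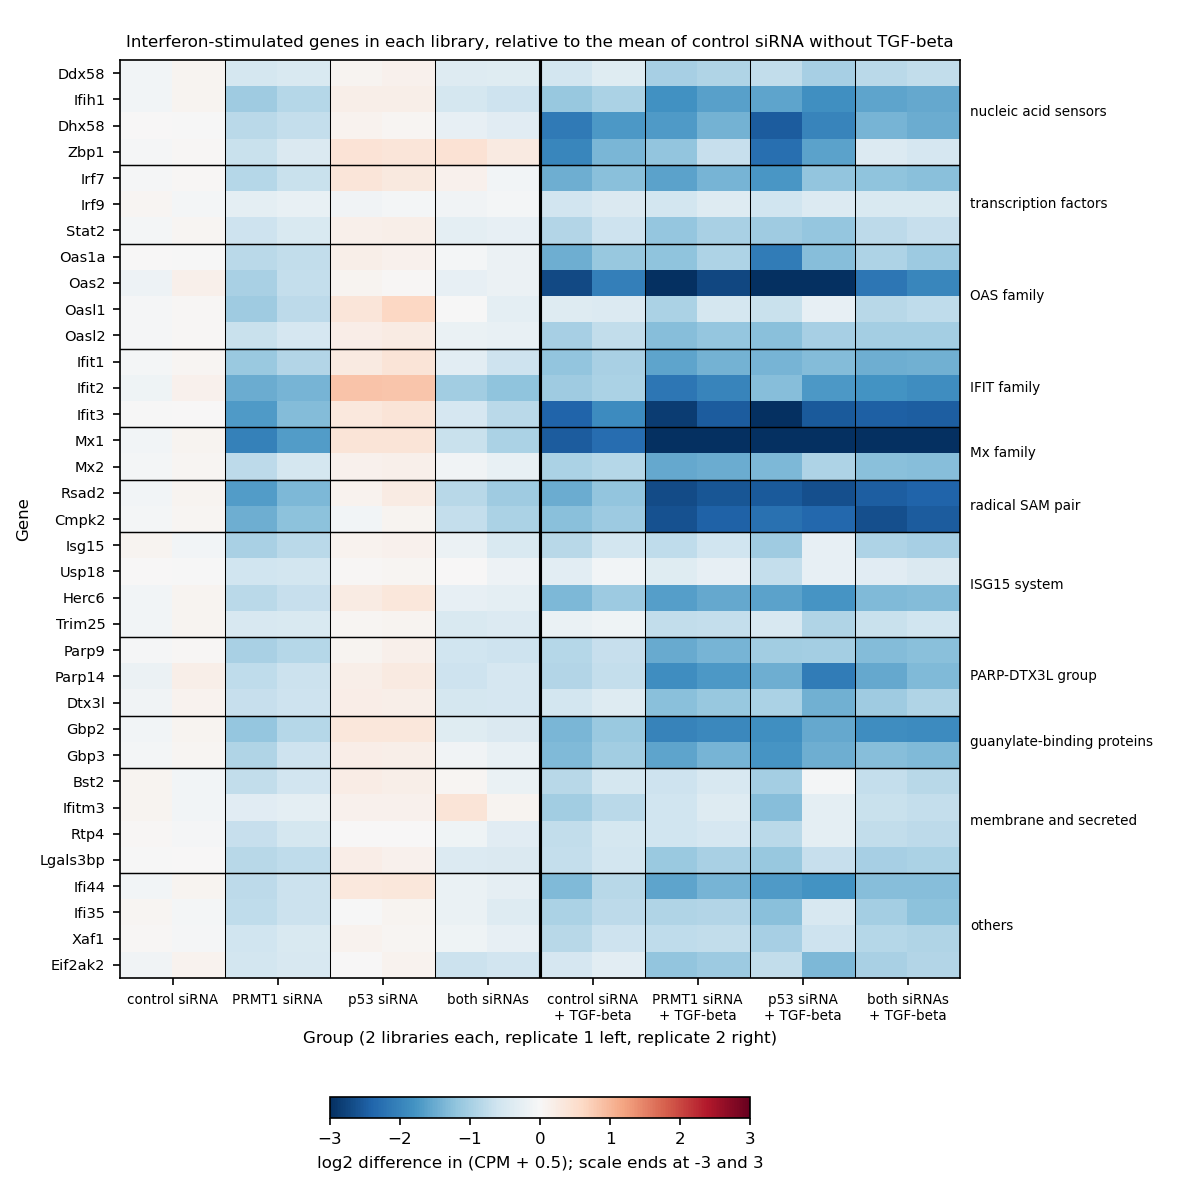
Each row is 1 of the 35 genes, ordered by role, and each column a library; colour gives the log2 difference in (CPM + 0.5) from the mean of control siRNA without TGF-beta, from -3 (blue) to 3 (red). Nearly all cells to the right of the heavy line (with TGF-beta) are blue, PRMT1 siRNA without TGF-beta is blue throughout, and p53 siRNA without TGF-beta is mostly pale red.

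TGF-beta lowered most of the group in cells with control siRNA: 31 of 35 genes fell and none rose, while 20.6% of all genes tested were called lower and 17.8% higher. The median change of the 35 was -0.91, against -0.01 for all genes, with a range of -2.43 to -0.16. In all 35 genes both TGF-beta libraries were below both control libraries, an arrangement seen in 37.7% of all genes. No member rose at an unadjusted p under 0.05 in edgeR, beside 21.7% of all genes. DESeq2 called 32 members lower and none higher, beside 3077 and 2797 of all genes.

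Among the antiviral effectors the largest fall was in Mx1, a GTPase that traps viral nucleocapsids. Mx1 had 74.5 and 83.8 CPM in the control libraries and 13.6 and 15.7 CPM after TGF-beta, 18.5% of control. The TGF-beta libraries were both far below the control ones (log2 change -2.43 ± 0.14, adjusted p = 7.43e-08). Oas2, a synthetase whose oligoadenylate product activates RNase L, went from 227 and 277 CPM to 37.7 and 60.0 CPM. Its partners within each group were further apart than those of Mx1, but the groups stayed clear of each other (log2 change -2.36 ± 0.20, adjusted p = 2.61e-06). Ifit3, of the family that binds viral RNA ends, went from 865 and 889.9 CPM to 166 and 236 CPM (log2 change -2.12 ± 0.22, adjusted p = 1.10e-05). Rsad2 (viperin), which makes an antiviral nucleotide, went from 452 and 511 CPM to 172 and 211 CPM (log2 change -1.33 ± 0.13, adjusted p = 1.02e-05), without overlap between the groups. By family, 3 of 3 Ifit genes, 2 of 2 Mx genes, 3 of 4 Oas genes, both guanylate-binding proteins and both genes of the Rsad2 and Cmpk2 pair fell.

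All 4 nucleic acid sensors fell. Dhx58 (LGP2), a helicase that tunes the RNA sensors Ddx58 (RIG-I) and Ifih1 (MDA5), had 122 and 121 CPM in control libraries and 27.5 and 36.3 CPM after TGF-beta (log2 change -1.93 ± 0.17, adjusted p = 2.47e-06). Zbp1, a sensor of Z-form nucleic acid, had 135 and 143 CPM and 35.5 and 53.2 CPM. In both genes the TGF-beta libraries were below the control ones by far more than the gap between partners. The 3 transcription factors fell as well, with Irf7, which drives interferon-alpha genes, at 232 and 245 CPM in control and 86.1 and 99.6 CPM in TGF-beta.

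The ISG15 system was divided. Herc6, a ligase that attaches the Isg15 modifier in mice, went from 208 and 237 CPM to 86.6 and 105 CPM (log2 change -1.22 ± 0.10, adjusted p = 2.47e-06), and Isg15 from 620.5 and 562 CPM to 330.4 and 401 CPM; both were called. Usp18, which removes Isg15 and dampens the receptor, had 263 and 256 CPM and 208 and 246 CPM (log2 change -0.19 ± 0.13, adjusted p = 0.276). Trim25, a ubiquitin ligase that acts on Ddx58, had 283 and 318 CPM and 262 and 274 CPM (log2 change -0.16 ± 0.11, adjusted p = 0.288). In these last 2 genes the libraries did not overlap, but the differences did not pass the test. Neither did those of Eif2ak2, the kinase PKR that blocks translation (log2 change -0.42 ± 0.16, adjusted p = 0.0575), and Oasl1 (log2 change -0.42 ± 0.18, adjusted p = 0.0854). With replicate 2 of p53 siRNA plus TGF-beta left out of the fit, all 35 genes were called lower.

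Among the 9 genes whose promoter window held the response element letters the median change was -1.19, with a range of -2.12 to -0.68. Among the 17 without them it was -0.87, with a range of -1.36 to -0.16. These ranges with control siRNA overlap. With and without the letters, TGF-beta medians were -1.79 and -1.07 with p53 siRNA and -0.99 and -0.71 with both siRNAs. With PRMT1 siRNA they were -0.53 and -0.54. Against control siRNA in TGF-beta they were -0.32 and -0.41 with PRMT1 siRNA, -0.37 and -0.42 with p53 siRNA and -0.28 and -0.32 with both. Without TGF-beta, PRMT1 siRNA gave -0.89 and -0.70. Which genes fell more thus differed between comparisons, and no difference was tested.

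Most of the genes also fell in TGF-beta under each of the other siRNAs. There the response is measured against that siRNA's own untreated libraries and shares no library with the response under control siRNA. With p53 siRNA all 35 genes fell in TGF-beta and the median change was -1.36, beside 22.0% of all genes called lower. With both siRNAs 32 genes fell (median -0.83), beside 16.3% of all genes. With PRMT1 siRNA 22 fell (median -0.54), beside 16.2%. None of the 35 rose in these 3 comparisons, in edgeR at an unadjusted p under 0.05 or in DESeq2, beside 23.3% of all genes called higher by edgeR with p53 siRNA, 16.3% with PRMT1 siRNA and 2324 of the 15494 genes with both. A set of 21 genes fell under all 4 siRNA treatments, among them Mx1, Mx2, Oas2, Oasl2, the 3 Ifit genes, Rsad2, Cmpk2, Irf7, Stat2, Ddx58, Ifih1, Dhx58 and both guanylate-binding proteins. The share of all genes that did so was not counted, but it cannot exceed the 16.2% called lower with PRMT1 siRNA.

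With p53 siRNA the falls started from the highest levels. Mx1 went from 103 and 104 CPM to 8.91 and 8.31 CPM (log2 change -3.58 ± 0.15, adjusted p = 4.20e-09), and Oas2 from 266 and 256 CPM to 18.8 and 18.4 CPM (log2 change -3.81 ± 0.22, adjusted p = 6.98e-08). In both genes the TGF-beta partners agreed closely, although these are the libraries that stand apart over all genes. Rsad2 went from 516 and 575 CPM to 83.5 and 77.2 CPM (log2 change -2.76 ± 0.14, adjusted p = 2.71e-08). Short transcripts behaved otherwise: Isg15 had 635 and 641 CPM without TGF-beta and 280.2 and 499 CPM with it, Bst2 856 and 818 CPM and 358 and 694 CPM, and Ifitm3 796 and 802 CPM and 303 and 596 CPM. In these 3 genes replicate 2 in TGF-beta was much nearer the untreated level than replicate 1.

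With PRMT1 siRNA the falls started from lower levels, and 13 genes did not pass. Mx1 went from 18.9 and 24.2 CPM to 5.57 and 5.42 CPM (log2 change -1.97 ± 0.15, adjusted p = 1.00e-06), and Oas2 from 127 and 153 CPM to 28.0 and 37.2 CPM (log2 change -2.10 ± 0.20, adjusted p = 9.08e-06). Both TGF-beta libraries were far below both untreated ones. Isg15 had 302 and 338 CPM without TGF-beta and 346 and 392 CPM with it, and Usp18 172 and 178 CPM and 203 and 220.5 CPM. In these 2 genes both TGF-beta libraries were the higher ones, as in 39.5% of all genes, and neither passed the test. None of the 4 membrane and secreted proteins (Bst2, Ifitm3, Rtp4, Lgals3bp) was called. The 22 genes called had a median longest transcript of 3683 bases, and the 13 not called 1885 bases. With offsets that remove each library's trend with transcript length, 27 genes fell and none rose, while a fit of these 2 groups alone called 30 lower and 2 higher and a fit without the p53 siRNA library that stands apart 27 lower and 1 higher.

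With both siRNAs the genes without a call in TGF-beta were Usp18 (log2 change -0.31 ± 0.13, adjusted p = 0.103), Trim25 (log2 change -0.22 ± 0.11, adjusted p = 0.177) and Eif2ak2 (log2 change -0.30 ± 0.16, adjusted p = 0.188), which were also without one under control siRNA. Mx1 went from 49.4 and 40.4 CPM to 6.22 and 7.13 CPM (log2 change -2.75 ± 0.14, adjusted p = 5.60e-08) and Cmpk2, a nucleotide kinase encoded beside Rsad2, from 91.2 and 76.8 CPM to 23.7 and 26.0 CPM (log2 change -1.76 ± 0.12, adjusted p = 6.44e-07). The groups lay far apart in both genes.

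**Figure D3:**
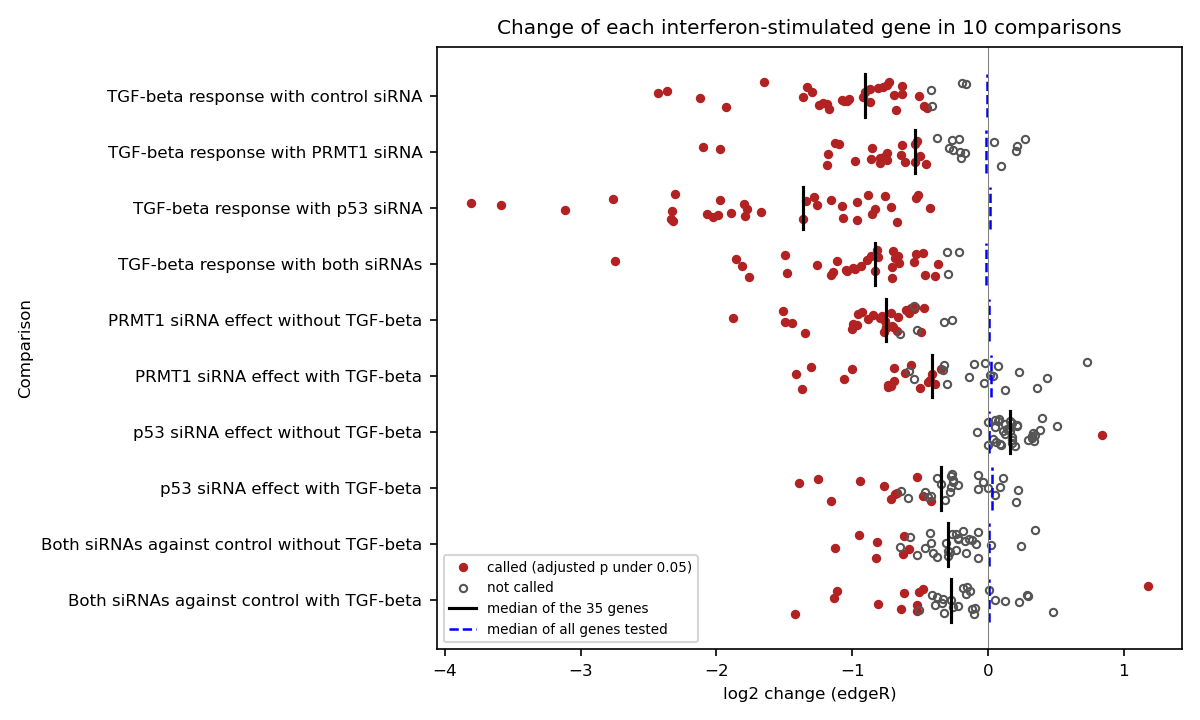
log2 change from edgeR (horizontal axis) of each of the 35 genes in 10 comparisons (rows); filled points are called at an adjusted p under 0.05, open points are not, black bars are medians of the 35 genes and dashed blue bars medians of all genes tested. The median of the 35 genes lies left of 0 in every comparison but p53 siRNA without TGF-beta, and the medians of all genes lie close to 0.

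PRMT1 siRNA without TGF-beta lowered 30 of the 35 genes and raised none, while 5.85% of all genes were called lower and 4.48% higher. The median change was -0.75, against 0.01 for all genes, with a range of -1.88 to -0.27. In all 35 genes both PRMT1 siRNA libraries were below both control libraries, as in 29.6% of all genes. No member rose at an unadjusted p under 0.05, beside 11.2% of all genes. DESeq2 called 33 members lower and none higher, beside 1277 and 696 of all genes. The siRNA effects share their control libraries with each other and with the TGF-beta response under control siRNA, so their values are set side by side and not counted as separate evidence.

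Mx1 again changed most, from 74.5 and 83.8 CPM in control cells to 18.9 and 24.2 CPM, 27.2% of control (log2 change -1.88 ± 0.13, adjusted p = 3.30e-05). Rsad2 had 150.5 and 187 CPM with PRMT1 siRNA against 452 and 511 CPM (log2 change -1.51 ± 0.14, adjusted p = 8.79e-05), and Cmpk2 53.5 and 63.7 CPM against 144 and 155 CPM (log2 change -1.35 ± 0.12, adjusted p = 8.81e-05). Ifit2, of the family that binds viral RNA, had 105 and 113 CPM against 270.4 and 324 CPM (log2 change -1.45 ± 0.14, adjusted p = 1.58e-04). None of these 4 overlapped between groups. Parp9, which forms a complex with Dtx3l that adds ADP-ribose, had 158 and 171 CPM against 303 and 322 CPM (log2 change -0.92 ± 0.08, adjusted p = 8.27e-05), and the sensor Ifih1 had 119 and 137 CPM against 236 and 263 CPM (log2 change -0.97 ± 0.11, adjusted p = 3.69e-04).

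By role, all members of the Oas, Ifit and Mx families, the ISG15 system, the Parp and Dtx3l genes and the guanylate-binding proteins fell. So did Ddx58, Ifih1 and Dhx58 among the 4 sensors, Irf7 and Stat2 among the 3 transcription factors, and Rtp4 and Lgals3bp, a secreted glycoprotein, among the 4 membrane and secreted proteins. The 5 genes that did not pass were Eif2ak2 (log2 change -0.52 ± 0.16, adjusted p = 0.0599), Irf9 (log2 change -0.27 ± 0.09, adjusted p = 0.0810), Bst2 (log2 change -0.65 ± 0.23, adjusted p = 0.108), Zbp1 (log2 change -0.54 ± 0.22, adjusted p = 0.159) and Ifitm3 (log2 change -0.32 ± 0.23, adjusted p = 0.462). The Isg15 level was 302 and 338 CPM against 620.5 and 562 CPM, about the level that control cells had in TGF-beta. The summed haematopoietic markers were 26.5 to 29.1 CPM against 40.0 to 41.9 CPM in control, again almost all Cd14; their part in the result was not tested. Of the 30 calls, 12 were left without replicate 2 of control siRNA, 11 without replicate 1 of PRMT1 siRNA and 17 without replicate 2 of PRMT1 siRNA; without the p53 siRNA library that stands apart, all 35 genes were called lower.

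In TGF-beta, PRMT1 siRNA lowered 18 of the 35 genes against control siRNA in TGF-beta, beside 6.53% of all genes, and the median change was -0.41. None was called higher, beside 9.13% of all genes. At an unadjusted p under 0.05, 2 were higher, beside 19.2% of all genes, and DESeq2 called 1 higher, beside 1429 of all genes. Both PRMT1 siRNA libraries were below both controls in 23 genes (in 35.5% of all genes) and above them in 3 genes, Zbp1, Dhx58 and Ifitm3 (in 39.2% of all genes). A set of 17 genes fell with PRMT1 siRNA both without and with TGF-beta, 13 fell only in the comparison without it, and Eif2ak2 fell only in the comparison with it. For the sets of 17 and 13 the share of all genes was not counted, but it cannot exceed the 5.85% called lower without TGF-beta. Whether the effects of PRMT1 siRNA without and with TGF-beta differ was tested by the interaction given further on.

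The largest falls were again in Mx1, Cmpk2 and Rsad2. Rsad2 had 73.8 and 81.2 CPM with PRMT1 siRNA in TGF-beta against 172 and 211 CPM with control siRNA in TGF-beta (log2 change -1.30 ± 0.14, adjusted p = 1.60e-04), and Cmpk2 23.9 and 27.5 CPM against 62.6 and 70.2 CPM (log2 change -1.37 ± 0.12, adjusted p = 6.75e-05). Mx1 had 5.57 and 5.42 CPM against 13.6 and 15.7 CPM (log2 change -1.42 ± 0.15, adjusted p = 1.90e-04). All 3 were free of overlap. Ifit2 had 65.6 and 74.4 CPM against 140.2 and 152 CPM (log2 change -1.06 ± 0.14, adjusted p = 7.44e-04), and Parp9 (log2 change -0.69 ± 0.08, adjusted p = 3.56e-04) and Ifih1 (log2 change -0.69 ± 0.11, adjusted p = 0.00233) fell less.

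Against the majority stood Zbp1, with 61.3 and 85.8 CPM against 35.5 and 53.2 CPM (log2 change 0.73 ± 0.23, adjusted p = 0.0509), and Dhx58, with 36.8 and 45.2 CPM against 27.5 and 36.3 CPM (log2 change 0.36 ± 0.16, adjusted p = 0.145). Both had higher values in both PRMT1 siRNA libraries, and neither passed the test. So had Ifitm3, with 485 and 559 CPM against 352 and 420 CPM (log2 change 0.43, not called). A positive change was found in 8 of the 35 genes. Isg15 overlapped, with 346 and 392 CPM against 330.4 and 401 CPM, and so did Irf7, with 78.6 and 89.8 CPM against 86.1 and 99.6 CPM. The 18 genes called had a median longest transcript of 3846 bases and none under 2330 bases, while the 17 not called had a median of 2181 bases. With length offsets 21 genes fell and 1 rose. The 18 calls became 8 lower and 1 higher, Zbp1, without replicate 2 of control siRNA with TGF-beta, and 7 and 10 lower without replicate 1 and replicate 2 of PRMT1 siRNA with TGF-beta.

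**Figure D4:**
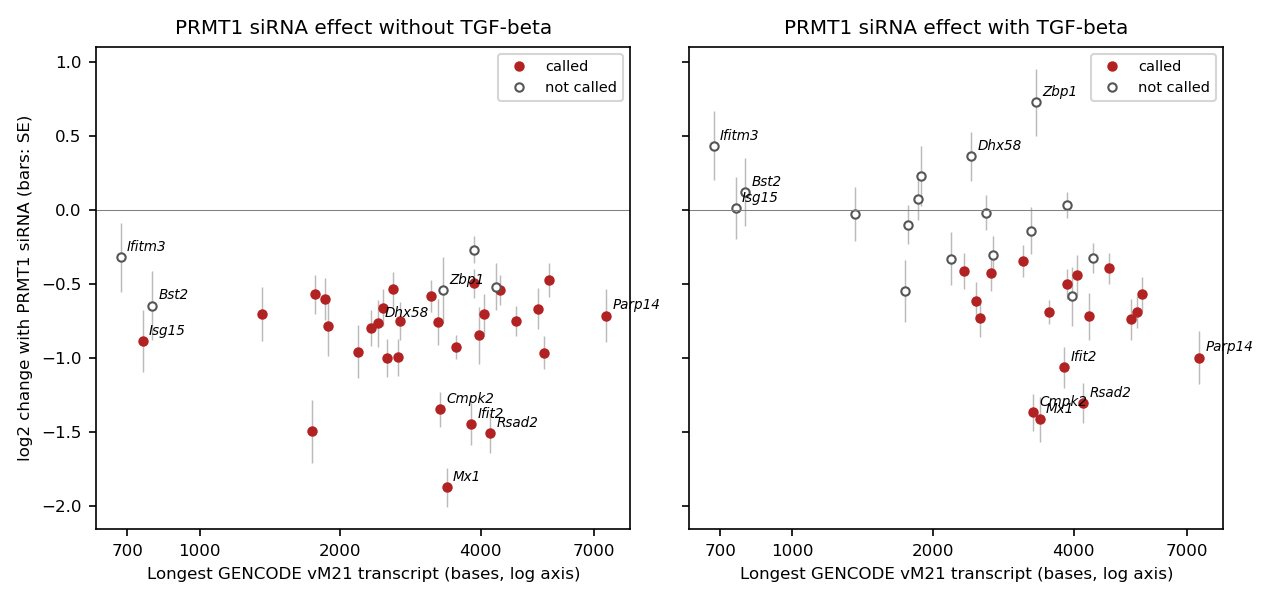
log2 change with PRMT1 siRNA (vertical axis; bars are SE) against the length of the longest GENCODE vM21 transcript in bases (log axis), without TGF-beta on the left and with TGF-beta on the right; filled points are called. Without TGF-beta all 35 genes lie below 0. With TGF-beta Zbp1 (3325 bases) is highest, the short Ifitm3 and Bst2 lie above 0 and the short Isg15 lies at about 0. The longest, Parp14, is among the lowest.

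p53 siRNA without TGF-beta changed 1 of the 35 genes. That was Ifit2, with 536 and 527 CPM against 270.4 and 324 CPM in control (log2 change 0.84 ± 0.14, adjusted p = 0.00999), clear of overlap; 1.17% of all genes were called higher and 1.29% lower. The call was lost without replicate 1 of control siRNA (adjusted p = 0.153), without replicate 1 of p53 siRNA (0.106) and without replicate 2 of p53 siRNA (0.0604). The median change of the 35 genes was 0.17, with a range of -0.08 to 0.84. Both p53 siRNA libraries were above both controls in 26 genes, as in 26.5% of all genes, and below them in 1, as in 24.9%. At an unadjusted p under 0.05, 7 of the 35 were higher and none lower, beside 7.08% and 6.93% of all genes. Without the library that stands apart the median change was 0.15.

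In TGF-beta p53 siRNA had the opposite sign: 11 genes fell and none rose, beside 2.39% of all genes called lower and 2.82% higher, and the median change was -0.35. Rsad2 had 83.5 and 77.2 CPM against 172 and 211 CPM with control siRNA in TGF-beta (log2 change -1.25 ± 0.14, adjusted p = 5.42e-04). Cmpk2 had 31.1 and 28.6 CPM against 62.6 and 70.2 CPM (log2 change -1.15 ± 0.12, adjusted p = 5.25e-04), and Oas2 18.8 and 18.4 CPM against 37.7 and 60.0 CPM (log2 change -1.39 ± 0.21, adjusted p = 0.00389). In these 3 genes the p53 siRNA partners were close and below both controls. Parp14, a mono-ADP-ribosyltransferase, had 120.0 and 77.5 CPM against 179 and 201 CPM (log2 change -0.95 ± 0.18, adjusted p = 0.0143), with its p53 siRNA partners far apart. Mx1 (log2 change -0.77 ± 0.15, adjusted p = 0.0145) and Ifih1 (log2 change -0.67 ± 0.11, adjusted p = 0.00680) also fell. No member was higher at an unadjusted p under 0.05, beside 17.0% of all genes. DESeq2 called 18 members lower and none higher, beside 737 and 789 of all genes.

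The 11 genes that fell had a median longest transcript of 4189 bases and none under 3274 bases, and the 24 others 2496 bases. The count depended on which libraries were used: it was 6 and 3 without replicate 1 and replicate 2 of control siRNA with TGF-beta, 17 without replicate 2 of p53 siRNA plus TGF-beta, and 0 in a fit of these 2 groups alone. Without replicate 1 of p53 siRNA plus TGF-beta 15 genes were called lower and 5 higher. Rsad2, Cmpk2 and Oas2 were called whichever library of these 2 groups was left out of the fit of all groups. Mx1 lost its call without either control library in TGF-beta and without replicate 2 of p53 siRNA (adjusted p = 0.0506 to 0.123), Parp14 without either control library (0.0675 and 0.102) and Ifih1 without replicate 2 of control siRNA with TGF-beta (0.0748).

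With both siRNAs and no TGF-beta, 7 genes fell and none rose against control siRNA, beside 2.14% of all genes called lower and 2.31% higher (median change -0.29). They were Ifit2 (log2 change -1.13 ± 0.14, adjusted p = 0.00153), Rsad2, Cmpk2, Mx1, Parp9, Ifih1 and Eif2ak2. Ifit2 had 144 and 128 CPM against 270.4 and 324 CPM, and was nearer the 105 and 113 CPM of PRMT1 siRNA alone than the 536 and 527 CPM of p53 siRNA alone. Mx1 had 49.4 and 40.4 CPM, between the levels of control and PRMT1 siRNA (log2 change -0.82 ± 0.13, adjusted p = 0.00548). No member was higher at an unadjusted p under 0.05, beside 10.2% of all genes. DESeq2 called 15 members lower and none higher, beside 639 and 409 of all genes. The count was 4 without replicate 2 of control siRNA and 3 without replicate 2 of both siRNAs; Mx1 lost its call in both of these fits, Cmpk2 in the latter, and Ifih1 in both and also without replicate 1 of both siRNAs. Without the p53 siRNA library that stands apart it was 18.

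With both siRNAs in TGF-beta, 10 genes fell and 1 rose, beside 5.35% and 7.71% of all genes (median change -0.28). Cmpk2 had 23.7 and 26.0 CPM against 62.6 and 70.2 CPM with control siRNA (log2 change -1.42 ± 0.12, adjusted p = 4.01e-05), Mx1 6.22 and 7.13 CPM against 13.6 and 15.7 CPM (log2 change -1.13 ± 0.15, adjusted p = 5.29e-04) and Rsad2 86.2 and 91.1 CPM against 172 and 211 CPM (log2 change -1.11 ± 0.13, adjusted p = 3.67e-04). None of these overlapped. The gene that rose was the sensor Zbp1, with 104 and 97.3 CPM against 35.5 and 53.2 CPM (log2 change 1.18 ± 0.23, adjusted p = 0.00631), where both libraries were above both controls. Its call was lost without replicate 1 of control siRNA with TGF-beta (adjusted p = 0.0778). Without replicate 2 of control siRNA with TGF-beta, or without either library of both siRNAs with TGF-beta, 5 genes were called lower and 1 higher. Without the p53 siRNA library that stands apart, 16 were called lower and 3 higher.

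Interaction tests asked whether an siRNA changed the TGF-beta response. For PRMT1 siRNA, 1 gene was called, Dhx58, whose change in TGF-beta was -1.93 with control siRNA and -0.80 with PRMT1 siRNA (difference 1.13 ± 0.23, adjusted p = 0.0284), beside 1.30% of all genes called higher and 0.781% lower. At an unadjusted p under 0.05, 19 members were higher and none lower, beside 12.7% and 8.58% of all genes. DESeq2 called 8 members higher, beside 495 of all genes. The single call was lost in 7 of 8 fits that left out 1 library, all but the one without replicate 2 of control siRNA with TGF-beta, where those 8 are the libraries of the groups compared. Without the p53 siRNA library that stands apart, 19 members were called higher and none lower.

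For p53 siRNA, 8 genes had a larger fall in TGF-beta than with control siRNA and none a smaller one, beside 0.568% of all genes called in that direction and 0.452% in the other. The median difference of the 35 was -0.55, and DESeq2 called 19 with a larger fall, beside 274 of all genes. Rsad2 fell by 2.76 on the log2 scale with p53 siRNA and by 1.33 with control siRNA (difference -1.43 ± 0.19, adjusted p = 0.00686). Cmpk2 (-1.15 ± 0.17, adjusted p = 0.0115), Ifit2 (-1.30 ± 0.20, 0.0121), Mx1, Ifih1, Herc6, Ifi44 and Oas2 were the others. In Ifit2 the difference was made up of a higher level with p53 siRNA before TGF-beta (536 and 527 CPM against 270.4 and 324 CPM) and a level after it of 123 and 89.4 CPM against 140.2 and 152 CPM. In Rsad2 the p53 siRNA effect was not called before TGF-beta (0.18 ± 0.13) and was in TGF-beta (-1.25 ± 0.14). The 8 calls became 1 and 3 without replicate 1 and replicate 2 of control siRNA, 2 and 1 without those of p53 siRNA, 1 without replicate 2 of control siRNA with TGF-beta and 20 without replicate 2 of p53 siRNA plus TGF-beta. Without replicate 1 of p53 siRNA plus TGF-beta 20 were called lower and 3 higher. Rsad2 was called in all 8 such fits, Cmpk2 lost its call in 3, Ifit2 in 4 and each of the 5 others in 5. In a fit of the 4 groups compared alone none of the 35 was called, Rsad2 included (adjusted p = 0.202).

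Without TGF-beta, the interaction of PRMT1 siRNA with p53 siRNA called none of the 35 genes, and 0.00% of all genes were called in either direction. Trp53 fell less with both siRNAs than with p53 siRNA alone, so the contrast does not compare equal falls of Trp53. The members' median of this interaction was 0.31. At an unadjusted p under 0.05 edgeR had 1 member lower and 4 higher, beside 3.24% and 4.45% of all genes. DESeq2 called no member, beside 14 genes lower and 38 higher among all genes.

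**Figure D5:**
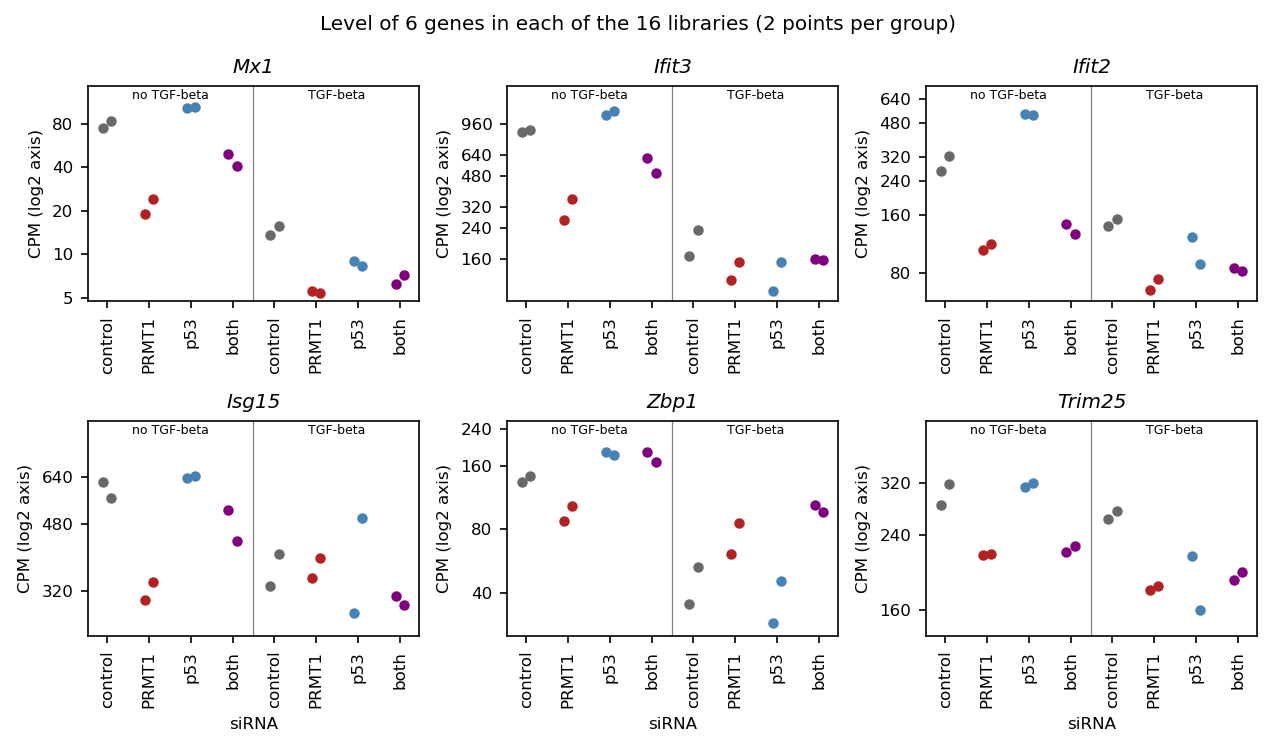
CPM on a log2 axis of Mx1, Ifit3, Ifit2, Isg15, Zbp1 and Trim25 in each library (2 points per group), with the 4 siRNA groups without TGF-beta left of the grey line and those with it right. Mx1 and Ifit3 drop most in TGF-beta, Ifit2 is highest with p53 siRNA without TGF-beta, the p53 siRNA pair in TGF-beta is far apart for Isg15, and Zbp1 is higher with both siRNAs than with control siRNA in TGF-beta.

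The ligands themselves were almost absent. Of 18 interferon genes listed, 10 had a count of 0 in every library, 5 had at most 3 counts in any, and only Ifnb1, which encodes interferon-beta, passed the filter. Ifna4 and Ifnz, with at most 18 and 3.02 counts in any library, did not pass. Without TGF-beta, Ifna4 had 8 and 7 counts with control siRNA, 1 and 0 with PRMT1 siRNA, 6 and 18 with p53 siRNA and 3 and 1 with both. In TGF-beta it had at most 3. Ifnb1 had 27 and 28 counts with control siRNA, 8 and 13 with PRMT1 siRNA, 23 and 33 with p53 siRNA and 30 and 10 with both. In TGF-beta it had 8 and 10, 5 and 6, 3 and 6, and 3 and 3 counts in the same order. Ifnb1 fell in TGF-beta with control siRNA (log2 change -1.56 ± 0.42, adjusted p = 0.0120) and with p53 siRNA (log2 change -2.39 ± 0.47, adjusted p = 0.00152), and with PRMT1 siRNA without TGF-beta (log2 change -1.58 ± 0.41, adjusted p = 0.0330). It was also called lower in TGF-beta with both siRNAs (adjusted p = 0.00157) and with both siRNAs against control siRNA in TGF-beta (0.0385), where the level with both rests on 3 counts a library; the latter call was lost without any 1 of the 4 libraries compared (0.134 to 0.193) and in DESeq2 (0.0630). The call with PRMT1 siRNA was lost without any 1 of the 4 libraries compared, at an adjusted p of 0.0864 to 0.268, and that with control siRNA in every such fit but the one without replicate 1 of control siRNA, at 0.0606 to 0.0756. Without replicate 2 of p53 siRNA plus TGF-beta the change with p53 siRNA was -3.03. Of the pair with both siRNAs and no TGF-beta, 1 library was at the level of control siRNA and the other at that of PRMT1 siRNA.

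Of 16 receptor and JAK-STAT genes, 10 fell in TGF-beta with control siRNA and 1 rose, beside 20.6% and 17.8% of all genes. Ifnar2, a chain of the type I receptor, had 78.1 and 75.1 CPM in control cells and 41.9 and 42.9 CPM after TGF-beta (log2 change -0.85 ± 0.11, adjusted p = 8.44e-05), without overlap. With PRMT1 siRNA it had 87.0 and 83.9 CPM, not below control. The other chain, Ifnar1, had 109 and 111 CPM and 98.0 and 97.1 CPM (log2 change -0.17 ± 0.07, adjusted p = 0.0659). With PRMT1 siRNA and no TGF-beta 3 of the 16 fell and none rose, beside 5.85% and 4.48% of all genes, with a median of -0.04.

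Of 17 tested genes of upstream sensing, 9 fell in TGF-beta with control siRNA and 1 rose, beside the same 20.6% and 17.8% of all genes. The falls with the lowest adjusted p were in Irf2, a repressor of interferon responses (-0.86 ± 0.07), Tlr3, the endosomal receptor of double-stranded RNA (-1.41 ± 0.15), and Irf1, an activator (-0.78 ± 0.09). With PRMT1 siRNA and no TGF-beta 5 fell and none rose, beside 5.85% and 4.48% of all genes. Irf3, the factor that sensors activate to induce Ifnb1, was called in none of the 10 comparisons of groups; it had 29.2 and 28.4 CPM in control cells, 24.6 and 25.0 CPM in TGF-beta and 25.7 and 25.3 CPM with PRMT1 siRNA. With p53 siRNA and no TGF-beta 1 of the 17 rose, Irf5 (log2 change 0.78 ± 0.16, adjusted p = 0.0259), and none fell, beside 1.17% and 1.29% of all genes; the call was lost without any 1 of the 4 libraries compared (adjusted p = 0.104 to 0.256).

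Another list, of 64 interferon-responsive genes outside the 35 (some, such as Irf1, also stand in the lists above), was measured beside them. Of 63 tested, 55 fell in TGF-beta with control siRNA and none rose (median -1.03), beside 20.6% and 17.8% of all genes, led by Ifit1bl1 (-3.49 ± 0.15), Gbp4 (-3.17 ± 0.16) and Gbp6 (-2.42 ± 0.12). With PRMT1 siRNA and no TGF-beta 41 fell and none rose (median -0.68), beside 5.85% and 4.48%, led by Ifit1bl1 (-2.10 ± 0.13), Uba7, the activating enzyme of Isg15 (-1.54 ± 0.12), and Parp12 (-1.16 ± 0.09). With p53 siRNA and no TGF-beta 3 rose, Ifit1bl1 (0.77 ± 0.12), Gbp6 (0.71 ± 0.12) and Nlrc5 (0.85 ± 0.14), and none fell, beside 1.17% and 1.29%. Ifit1bl1 and Gbp6 lost their calls without any 1 of the 4 libraries compared (adjusted p = 0.0501 to 0.154), and Nlrc5 lost its call without replicate 1 of control siRNA and without either p53 siRNA library (0.0685 to 0.127). In TGF-beta, 24 of the 63 fell with p53 siRNA and none rose, beside 2.39% and 2.82%.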

How the data were processed

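Per the labels, total RNA of MEC1 cells was extracted with TRIzol and enriched for poly(A) RNA before libraries were made. The deposited values are expected counts for each gene; the submitters' processing notes name TopHat2, Partek and mm10. Versions, annotation and strand are not given in the sources used here. Expected counts split reads that fit several genes, so only 60.0% of the values above 0 were within 0.01 of a whole number, and they were rounded before testing. Groups came from the sample titles.

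All 16 libraries (19617874 to 30759317 counts) were fitted in edgeR 4.0.16 under R 4.3.3 with 1 mean per group, TMM scaling and filterByExpr, leaving 15494 genes. The quasi-likelihood F test was used for 13 contrasts, with calls at a p under 0.05 after Benjamini-Hochberg adjustment over all 15494. Every adjusted p printed is edgeR's unless DESeq2 is named. edgeR's common biological coefficient of variation, shared by all comparisons, was 0.114, and 0.0604 when replicate 2 of the group with p53 siRNA and TGF-beta was left out. In simulated libraries of the TGF-beta response with control siRNA (15039 genes), 25 of 67 genes changed by 0.5 on the log2 scale were recovered, 62 of 67 changed by 1 and 66 of 66 changed by 2, with 11 unchanged genes called. Every simulated gene had the same spread, the median over genes, and no simulated library stood apart. These rates therefore need not hold for the real libraries.

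The 35 members and all lists were chosen from general knowledge with earlier results of these data known, so no list is independent support for a direction. Named with fold and p, per contrast, are up to 6 called members in each direction with the lowest adjusted p, members that did not pass or moved against most others where 5 or fewer did so, Prmt1, Trp53, Ifnb1, Ifnar1, Ifnar2 and Irf3, and up to 3 called genes of each further list; any member may be named with its levels. A further gene under this rule is not reported here. The lists hold interferon ligands, receptor and JAK-STAT genes, upstream sensing genes, further interferon-responsive genes, and epicardial, haematopoietic, endothelial and cardiomyocyte markers. Transcript lengths came from GENCODE vM21, matched by symbol for 42003 genes and by synonym for 809, which may differ from the authors' annotation. Promoter windows came from RefSeq.

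Alternatives were DESeq2 1.42.0, edgeR with RLE factors, a fit without the low-count filter, a fit of only the groups compared, a replicate block, 15 libraries, length offsets (a lowess trend per library, span 0.3), both of the last together, and leaving out each library of the groups compared in turn, where a library without its partner is taken to vary as much as the rest.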

Additional observations from a re-analysis of the deposited data

Results flagged for a closer look

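Tests of a difference between 2 TGF-beta responses called 9 of the 35 genes. The test for PRMT1 siRNA called 1, beside 1.30% of all genes called in that direction. The test for p53 siRNA called 8, beside 0.568% of all genes. Dhx58 changed less in TGF-beta with PRMT1 siRNA than with control siRNA (difference of log2 changes 1.13 ± 0.23, adjusted p = 0.0284); both PRMT1 siRNA libraries started lower, at 68.9 and 73.7 CPM against 122 and 121 CPM, and ended higher, at 36.8 and 45.2 CPM against 27.5 and 36.3 CPM. The other 8 changed more with p53 siRNA than with control siRNA: Rsad2 by -1.43 (adjusted p = 0.00686), Oas2 by -1.45 (0.0377), Ifit2 by -1.30 (0.0121), Cmpk2 by -1.15 (0.0115), Mx1 by -1.15 (0.0209), Ifi44 by -1.01 (0.0339), Ifih1 by -0.85 (0.0290) and Herc6 by -0.77 (0.0339). These 8 genes had longest transcripts of 3274 to 5470 bases, against a median of 2597 bases for the other 27, and the group with p53 siRNA and TGF-beta holds the library that stands apart. With length offsets 18 genes were called in that direction, and without that library 20. In a fit of the 4 groups alone none was called, and without 1 of 5 other libraries 1 to 3 were. Leaving out 1 library of these groups at a time, Rsad2 kept its call in all 8 fits, Cmpk2 lost it in 3, Ifit2 in 4, and Oas2, Mx1, Ifi44, Ifih1 and Herc6 in 5 each. The call of Dhx58 was lost in 7 of 8 such fits.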

How the results depend on the processing

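In all settings the median change of the 35 genes kept its sign in every comparison, and none of the changes of single named genes turned direction. Of 104 counts of called members under another setting, 66 were within 1.5 times of the count in the report, and 36 of the other 38 were higher. The 104 do not include the fits that left out each library in turn. Those are given in the next paragraph, and their counts were often lower than in the report. The counts for all 4 TGF-beta responses and for PRMT1 siRNA without TGF-beta were among the stable ones outside the fits that left out a library. With DESeq2 the count was 18 for p53 siRNA with TGF-beta, 15 for both siRNAs without it, 8 for the PRMT1 siRNA by TGF-beta interaction and 19 for the p53 siRNA by TGF-beta interaction. Without the low-count filter these were 18, 14, 13 and 19, with 3 for p53 siRNA without TGF-beta and 1 for the PRMT1 by p53 siRNA interaction. With 15 libraries, in the order p53 siRNA, p53 siRNA with TGF-beta, both siRNAs, both with TGF-beta, and the interactions of PRMT1 siRNA with TGF-beta, p53 siRNA with TGF-beta and PRMT1 with p53 siRNA, they were 6, 17, 18, 19, 19, 20 and 8. With length offsets they were 2, 21, 18, 21, 8 and 18, the last interaction giving none. With both changes they were 7, 29, 24, 24, 21, 31 and 7, and PRMT1 siRNA with TGF-beta rose to 28. With only the groups compared they were 7, 0, 12, 23, 19, 0 and 1. The fits of 15 libraries have a smaller estimate of the spread. For the other settings the cause was not tested. Shares of all genes are given only for the main edgeR fit and DESeq2, so member counts from the other fits stand without one.

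Leaving out each library of the groups compared in turn, which leaves its group with a single library, gave 11 to 21 called members for PRMT1 siRNA, 7 to 17 for PRMT1 siRNA with TGF-beta, 0 to 1 for p53 siRNA, 3 to 20 for p53 siRNA with TGF-beta, 3 to 6 for both siRNAs and 6 to 8 for both with TGF-beta. The TGF-beta response gave 26 to 30 with control siRNA, 17 to 22 with PRMT1 siRNA, 31 to 35 with p53 siRNA and 22 to 27 with both. The interactions gave 0 to 1 (PRMT1 siRNA by TGF-beta), 1 to 23 (p53 siRNA by TGF-beta) and 0 to 0 (PRMT1 by p53 siRNA).

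The replicate numbers did not pair the libraries: over 28 pairs of groups the correlation of deviations ran from -0.40 to 0.25, with 6 above 0.1. With a replicate block the count was 20 for PRMT1 siRNA with TGF-beta (19 lower and 1 higher), 6 for both siRNAs, 9 lower and 1 higher for both siRNAs with TGF-beta, and unchanged from the report in the other 10 comparisons. Of genes named with a call, Ifnb1 lost it with PRMT1 siRNA (adjusted p = 0.0505) and with both siRNAs in TGF-beta (0.0547) and Psmb8 with PRMT1 siRNA in TGF-beta (0.0584), while Zbp1 gained one with PRMT1 siRNA in TGF-beta (0.0401). In the simulated libraries, where 200 genes were changed, 25 of 67 changes of 0.5 on the log2 scale were recovered with 2 libraries a group. The real TGF-beta response with control siRNA held 3198 genes called lower and 2752 higher, so the adjustment of p is not the same there. Members near that size were called in some cases (Ddx58 at -0.45) and not in others (Eif2ak2 at -0.42). Ifnb1 rests on at most 33 counts a library.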

Other observations

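Outside the 35 genes, a few interferon-responsive genes were called higher in TGF-beta with siRNAs to PRMT1; those described were chosen after their values were seen. Of 63 tested, 32 were called lower with PRMT1 siRNA in TGF-beta and 5 higher, beside 6.53% and 9.13% of all genes, so the share called higher was not above that of all genes. With both siRNAs 21 were lower and 8 higher, beside 5.35% and 7.71%. Ifi27l2a, a small mitochondrial membrane protein gene of the ISG12 family, had 111 and 99.8 CPM with control siRNA, 74.6 and 87.6 with PRMT1 siRNA, 111 and 95.4 with p53 siRNA and 162 and 144 with both without TGF-beta. In TGF-beta it had 3.92 and 6.78 CPM with control siRNA, 18.5 and 27.9 with PRMT1 siRNA, 5.96 and 14.4 with p53 siRNA and 32.6 and 27.9 with both. It fell in TGF-beta with every siRNA, most with control siRNA (-4.27 ± 0.36) and least with PRMT1 siRNA (-1.80 ± 0.31). In TGF-beta it was higher with PRMT1 siRNA (log2 change 2.10 ± 0.36, adjusted p = 0.00331) and with both siRNAs (log2 change 2.47 ± 0.35, adjusted p = 0.00110) than with control siRNA, a call kept whichever library was left out, while without TGF-beta PRMT1 siRNA gave -0.37 ± 0.30 (not called).

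Oas1c had 5.83 and 5.51 CPM with control siRNA in TGF-beta, 8.13 and 9.01 CPM with PRMT1 siRNA and 8.54 and 8.98 CPM with both, and both differences were called (0.60 ± 0.11 and 0.63 ± 0.11); the first was lost without replicate 2 of either group compared. Psmb8, an immunoproteasome subunit, had 14.0 and 19.1 CPM, 25.5 and 30.6 CPM and 36.1 and 31.4 CPM in the same groups (0.76 ± 0.23 and 1.02 ± 0.23), and lost its call with PRMT1 siRNA in all 4 fits that left out a library compared and with RLE factors (adjusted p = 0.0520), and that with both siRNAs in 3 of 4 (0.0525 to 0.148). Ifi27 was higher in both libraries with p53 siRNA and TGF-beta than in both with p53 siRNA alone (20.9 and 25.9 CPM), with a log2 change of 1.51 ± 0.19 (adjusted p = 5.97e-05), the only tested gene of that list that rose in that response.

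With p53 siRNA in TGF-beta the 2 partner libraries differed by transcript length among the 35 genes. The short Ifitm3, Bst2 and Isg15 were higher in replicate 2, and the long Parp14 (120.0 and 77.5 CPM) and Eif2ak2 (245 and 159.9 CPM) were higher in replicate 1, while Mx1, Rsad2, Cmpk2 and Oas2 were close.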
